A study of Homo sapiens with 13 samples.

Results

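The genes around ERBB2 on the long arm of chromosome 17 were followed through 13 RNA libraries from SKOV3 and OVCAR3, both human cell lines of ovarian carcinoma. Members were the genes of chromosome 17 whose annotated span overlaps 38.69 to 40.73 Mb and that had at least 100 counts summed over the 13 libraries, ERBB2 included. This gave 50 members among the 112 genes of that window and the 62703 genes of the count tables: 42 protein-coding genes, 4 antisense transcripts, 3 long intergenic RNAs and 1 transcript whose coding status is not settled. Beside position, the members were thus chosen by their summed counts, which the text below does not test. At the lower limit, ENSG00000278834 (101 counts), RARA-AS1 (118) and ENSG00000275532 (136) were just inside it, and PLXDC1 (88), ENSG00000286443 (67) and ENSG00000279806 (65) just outside. Of the 62 genes left out, 19 had 0 counts in every library. By position, 21 members lay on the centromeric side of PPP1R1B, 8 formed the core from PPP1R1B to GRB7, and 21 lay on the telomeric side of GRB7.

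The libraries formed 5 groups. SKOV3 cells overexpressed RSF1 (3 libraries), overexpressed RSF1delUAB, a form of RSF1 without its UAB region (3 libraries), or carried a control vector (3 libraries). OVCAR3 cells expressed the UAB peptide (2 libraries) or were the scramble control (2 libraries), and all 4 OVCAR3 cultures had 2000 ng/mL doxycycline for 6 days before harvest. The labels name no treatment for SKOV3. RSF1 is a histone chaperone that joins the ATPase SMARCA5 in a nucleosome remodelling complex, and the series title names its recognition of ubiquitinated histone H2A. The labels do not say whether a line was 1 clone, nor whether replicates were separate cultures, so the p-values reflect variation among these libraries, part or all of which may be technical.

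ERBB2 encodes a receptor tyrosine kinase of the epidermal growth factor receptor family that has no known ligand of its own and signals in pairs with EGFR, ERBB3 or ERBB4. In a share of breast, gastric and ovarian carcinomas the gene is present in many copies, and neighbours such as STARD3, PGAP3, MIEN1 and GRB7 are then usually copied with it. SKOV3 is a cell line known for this amplification, and OVCAR3 is a line from a serous carcinoma that is not known for it. DNA copy number was not analysed here.

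The SKOV3 libraries held 15194678 to 18748009 counts each, and the OVCAR3 libraries 18160558 to 24026993. RSF1 itself stood at 631 to 775 CPM in RSF1 libraries, 459 to 509 CPM in RSF1delUAB libraries and 42.2 to 47.5 CPM in SKOV3 control libraries, where CPM are counts divided by the library total, scaled by the TMM method and set to the usual common total. In OVCAR3 the gene gave 586 to 787 CPM with the UAB peptide and 564 to 707 CPM in scramble libraries, so it does not check those labels. Of 9 ovarian and epithelial markers, 6 reached 1 CPM in SKOV3 control libraries, while MUC16, CDH1 and WT1 did not, and all 9 did in OVCAR3. Replicates of a group differed beyond counting noise in each pair (chi-square per degree of freedom 2.20 to 14.4). RSF1 replicate 1 differed more from RSF1 replicates 2 and 3 (12.7 and 14.4) than these did from each other (3.63). The main results that include it are therefore also given without it. In OVCAR3 the scramble pair (13.4) and the UAB pair (11.5) differed to a similar degree. With 2 libraries a group, neither library of a pair can be singled out.

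Start-site windows are shown first for 3 core genes that the results below turn on, ERBB2 and its neighbours STARD3 and MIEN1, all of them lower with RSF1 in SKOV3. Each run of 120 bases covers 90 bases before and 30 bases after the start in the RefSeq promoter table (GRCh38.p14), on the gene's own strand, at chr17:39688004-39688123 (plus strand), chr17:39637054-39637173 (plus strand) and chr17:39730503-39730622 (minus strand). Capitals mark matches to CCGGAAG or its reverse complement CTTCCGG, a core of the sites bound by ETS-family transcription factors.
ERBB2: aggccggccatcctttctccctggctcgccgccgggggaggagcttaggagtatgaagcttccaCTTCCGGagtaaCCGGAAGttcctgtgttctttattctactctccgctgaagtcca
STARD3: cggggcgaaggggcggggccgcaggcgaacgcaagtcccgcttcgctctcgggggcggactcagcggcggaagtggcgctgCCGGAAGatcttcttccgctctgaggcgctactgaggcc
MIEN1: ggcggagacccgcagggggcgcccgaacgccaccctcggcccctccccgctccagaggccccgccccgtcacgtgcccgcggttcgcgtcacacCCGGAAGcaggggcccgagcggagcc

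The ERBB2 window held the word once in each orientation, and the STARD3 and MIEN1 windows held it once each. Of the 50 members, 32 had an entry in the table, with 38 windows of 300 bases in all (250 before and 50 after the start). The word occurred in 7 of these 38 windows (18.4%), against 10.3% of all 35116 windows of that length, and 1.74% of all windows held it at least 2 times. All 4 core members with an entry held it, PGAP3 among them, but the PGAP3 window lies on the other strand and shares 136 bases with that of ERBB2, both matches included. The word was picked after the sequences had been read, and a match describes letters only.

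The first comparison set the SKOV3 control libraries beside the OVCAR3 scramble libraries, to show how the region is transcribed in a line known for the amplification and in one that is not. Because the region was placed on a gene already known to be amplified in SKOV3, this comparison is given as a description. The labels of the lines differ also in doxycycline and vector, which cannot be told apart from the line itself. Levels between genes are given as RPKM, reads per kilobase of exon relative to the same library total, scaled over all 13 libraries.

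ERBB2 (ENSG00000141736, 39687914 to 39730426, plus strand) was at 816, 839 and 773 RPKM in the SKOV3 control libraries, against 12.3 and 11.9 RPKM in the scramble libraries, a difference of 6.07 ± 0.11 on the log2 scale (SE), or 67.0-fold. MIEN1, a small membrane-anchored protein linked to cell migration whose gene overlaps the end of ERBB2 on the opposite strand, was at 674, 663 and 684 RPKM against 7.77 and 7.80 RPKM (log2 difference 6.43). PPP1R1B, an inhibitor of protein phosphatase 1 best known from neurons that respond to dopamine, was at 302, 313 and 289.8 RPKM against 0.0920 and 0.0930 RPKM (log2 difference 11.65). In all 3 the lines were far apart. PPP1R1B had 10 and 10 counts in the scramble libraries, so it passed the count limit through SKOV3.

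The other 5 core genes were also higher in SKOV3. STARD3, which binds cholesterol in the membrane of late endosomes, averaged 117 ± 4.27 RPKM in SKOV3 control libraries and 5.91 ± 0.122 RPKM in scramble libraries (SD, n = 3 and n = 2). GRB7, an adaptor that docks on phosphorylated ERBB2, averaged 43.0 ± 0.562 against 3.92 ± 0.787 RPKM. PGAP3, which remodels the lipid of GPI anchors, averaged 31.6 ± 1.58 against 4.23 ± 0.484 RPKM. TCAP, a protein of the muscle sarcomere, and PNMT, the enzyme that makes adrenaline, were much lower in level, at 7.90 and 2.13 RPKM in SKOV3 control libraries against 0.590 and 0.253 RPKM in scramble libraries. Per length, the order in SKOV3 control libraries was ERBB2, MIEN1, PPP1R1B, STARD3, GRB7, PGAP3, TCAP and PNMT, with no overlap between neighbours. In scramble libraries it was ERBB2, MIEN1, STARD3, PGAP3, GRB7, TCAP, PNMT and PPP1R1B, and the values of PGAP3 and GRB7 overlapped there.

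**Figure D1:**
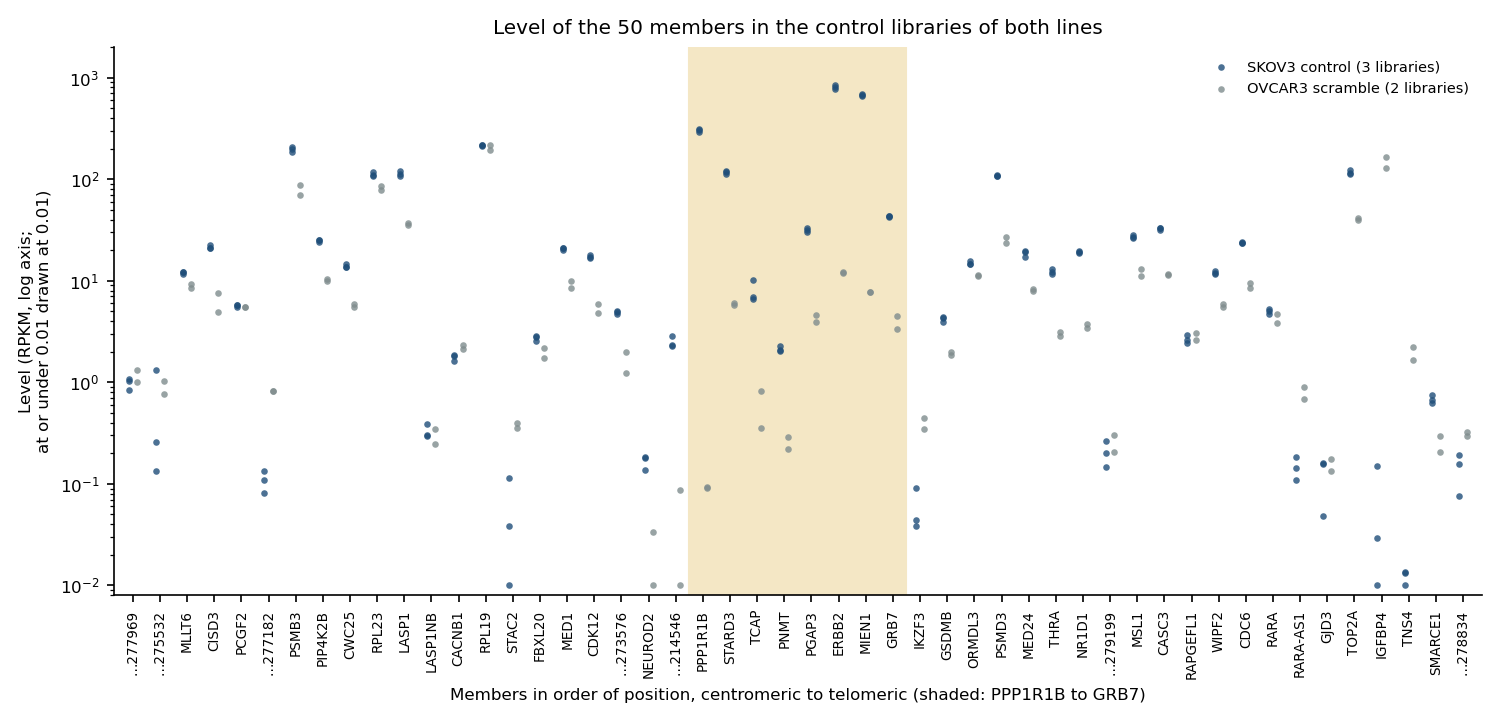
Level of the 50 members in RPKM (log axis) in order of position, with 1 point per library for SKOV3 control (blue, 3 libraries) and OVCAR3 scramble (grey, 2 libraries); values at or under 0.01 are drawn at 0.01. In the shaded core every SKOV3 point lies above every OVCAR3 point of the same gene, while IGFBP4 and TNS4 near the telomeric end lie the other way.

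Away from the core the gap was smaller. The median log2 difference between SKOV3 control and scramble was 4.02 over the 8 core genes, 0.48 over the 21 centromeric members and 1.06 over the 21 telomeric members, against -0.08 over all genes and -0.04 over the 829 other genes tested on 17q. The neighbouring windows of the same width had medians of 1.03 (20 genes, centromeric) and 0.60 (51 genes, telomeric). At an adjusted p of 0.05 edgeR called 33 of the 50 members higher and 7 lower in SKOV3, where 36.0% and 40.6% of all genes tested were called. Among members with a general function, PSMD3, a subunit of the proteasome cap, averaged 109 ± 1.05 RPKM in SKOV3 control against 25.3 ± 2.78 RPKM in scramble libraries. NR1D1, a haem-binding repressor of the circadian clock, averaged 19.2 ± 0.519 against 3.59 ± 0.243 RPKM. RPL19, a ribosomal protein gene, averaged 215 ± 4.23 against 205 ± 15.9 RPKM, and its groups overlapped.

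A few members were higher in OVCAR3. IGFBP4, a secreted binding protein of insulin-like growth factors, was at 0.0296, 0.149 and 0 RPKM in SKOV3 control libraries, against 164 and 129 RPKM in scramble libraries. TNS4, a tensin of focal adhesions, had 2 counts over the 3 SKOV3 control libraries and 451 over the 2 scramble libraries, a ratio of 218 in favour of scramble (95% counting interval 60.1 to 1808, which covers counting error only). IKZF3, a lymphoid transcription factor next to GRB7, averaged 0.0580 ± 0.0287 RPKM in SKOV3 control against 0.400 ± 0.0702 RPKM in scramble libraries. STAC2 and the antisense transcript ENSG00000277182 were also lower in SKOV3 (log2 differences -2.83 and -2.89). In the other direction ENSG00000214546, a transcript just centromeric of the core, had 109 counts against 2, a ratio of 56.3 (95% counting interval 15.2 to 471). Except for STAC2, which also drew counts from the RSF1delUAB libraries of SKOV3, these genes passed the count limit mainly through 1 line. Those genes therefore had to differ between lines. The same holds for core genes rare in OVCAR3, such as PPP1R1B and PNMT, whose values enter the core median and the calls above.

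The second comparison asked what overexpressed RSF1 changed in SKOV3. All 8 core genes were lower with RSF1 than with control vector. ERBB2 fell 3.38-fold. It made up 0.216 to 0.285% of all counts in RSF1 libraries, against 0.784 to 0.849% in control libraries. PPP1R1B fell most, 15.8-fold, and GRB7 least. Outside the core, genes moved in both directions.

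ERBB2 was at 2139, 2525 and 2816 CPM in RSF1 libraries, against 8536, 8723 and 8031 CPM in control libraries. Every RSF1 library was below every control library, and RSF1 replicate 1 was the lowest. The log2 fold change was -1.76 ± 0.074 (SE; edgeR's quasi-likelihood test, adjusted p = 4.39e-14), and -1.66 without RSF1 replicate 1. In RNA from a whole culture, fewer cells with a high level and less RNA per cell cannot be told apart. MIEN1 was at 378, 366 and 391 CPM in RSF1 libraries, against 1391, 1361 and 1403 CPM in control libraries. Its groups were as clearly apart, with a log2 fold change of -1.87 ± 0.055 (edgeR, adjusted p = 1.8e-16). MIEN1 shares 571 exon bases, 28.0% of its own, with ERBB2 on the opposite strand, and the use of strand in counting is not stated, so reads of the pair may not be fully separated.

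PPP1R1B was at 92.6, 81.4 and 89.0 CPM in RSF1 libraries, against 1389.8, 1434 and 1325 CPM in control libraries. The groups did not come near each other, and the log2 fold change was -3.98 ± 0.072 (edgeR, adjusted p = 2.5e-19). STARD3 was at 457, 394 and 421 CPM in RSF1 libraries, against 699, 714 and 663 CPM in control libraries (log2 fold change -0.71 ± 0.064, edgeR adjusted p = 5.79e-09). PGAP3 was at 73.7, 73.7 and 75.0 CPM in RSF1 libraries, against 115, 121 and 110.0 CPM in control libraries (log2 fold change -0.64 ± 0.065, edgeR adjusted p = 3.49e-08). Neither gene's groups overlapped, and both fell by less than ERBB2 on the log2 scale. PGAP3 shares 144 exon bases, 3.98% of its own, with the far higher ERBB2 on the opposite strand. Its reads, too, may therefore not be fully separated from those of ERBB2.

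GRB7 was at 143, 127 and 129 CPM in RSF1 libraries, against 157, 158 and 154 CPM in control libraries. The groups were apart by a narrow margin, with a log2 fold change of -0.23 ± 0.063 (edgeR, adjusted p = 0.00293). The lowly expressed TCAP was at 2.61, 1.52 and 1.89 CPM in RSF1 libraries, against 6.42, 9.82 and 6.72 CPM in control libraries, and PNMT at 1.04, 0.699 and 1.07 against 2.45, 2.65 and 2.39 CPM. Both were lower in every RSF1 library (log2 fold changes -1.93 ± 0.22 and -1.41 ± 0.27, edgeR adjusted p = 1.36e-07 and 0.000141).

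**Figure D2:**
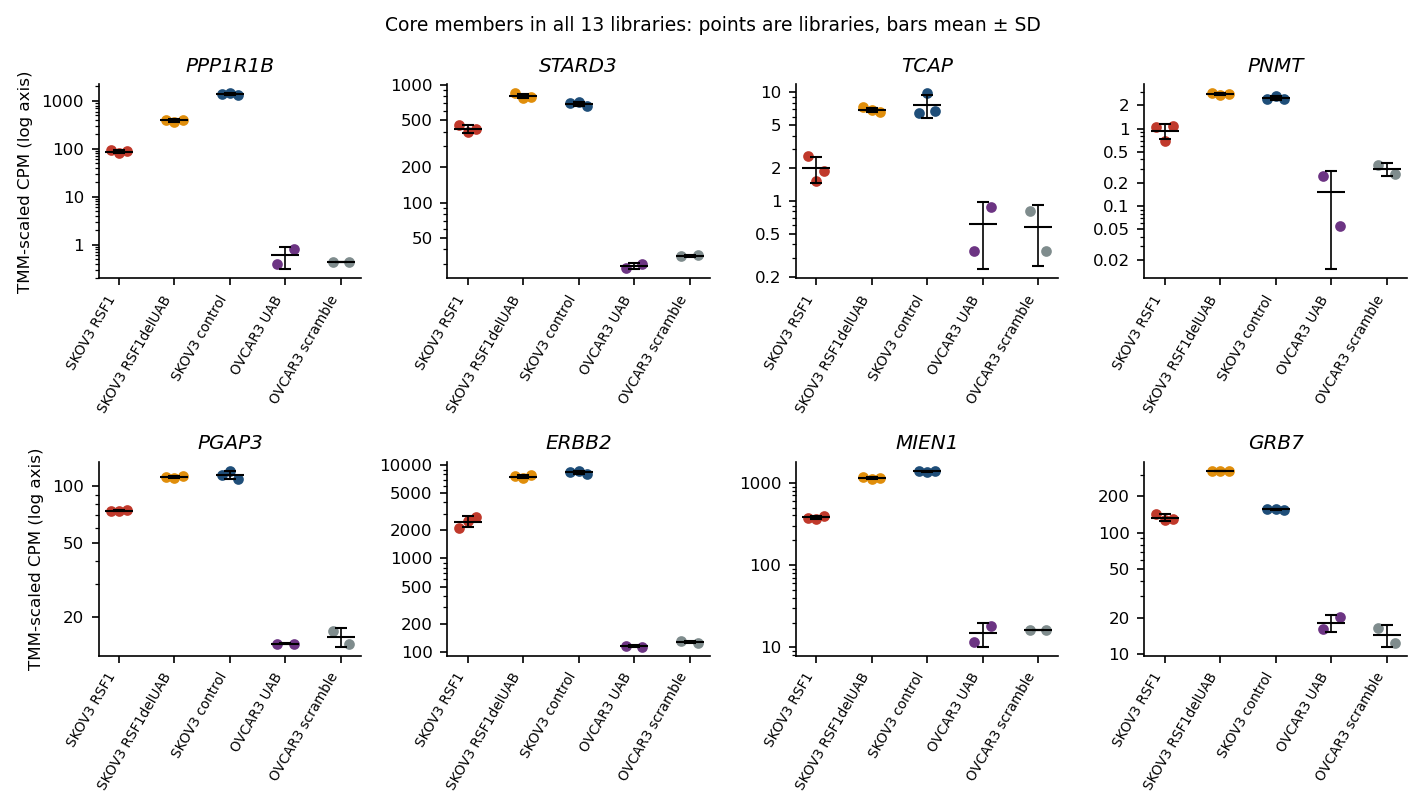
TMM-scaled CPM (log axis) of the 8 core members in all 13 libraries, 1 point per library, with bars for mean ± SD. In every panel the SKOV3 RSF1 libraries lie below the control libraries, and the OVCAR3 libraries lie lower still.

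The fall was uneven within the core, which shows in levels set against ERBB2 in the same library. Per 100 units of ERBB2 per kilobase, GRB7 stood at 13.2 to 19.2 in RSF1 libraries, against 5.19 to 5.49 in control libraries. STARD3 stood at 26.4 to 37.6 in RSF1 libraries, against 14.4 to 14.6 in control libraries, and PGAP3 at 7.59 to 9.82 against 3.83 to 3.97. The share of these 3 genes relative to ERBB2 was thus higher in every RSF1 library. PPP1R1B stood at 7.18 to 9.83 in RSF1 libraries, against 37.0 to 37.5 in control libraries. MIEN1 stood at 70.3 to 89.5 in RSF1 libraries and 79.1 to 88.5 in control libraries, so its ranges overlapped. Per length, PPP1R1B held the sixth place among core genes in RSF1 libraries and the third in control libraries. Its values in RSF1 libraries (20.9, 18.2 and 20.2 RPKM) overlapped those of PGAP3 (20.9, 20.7 and 21.3 RPKM).

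**Figure D3:**
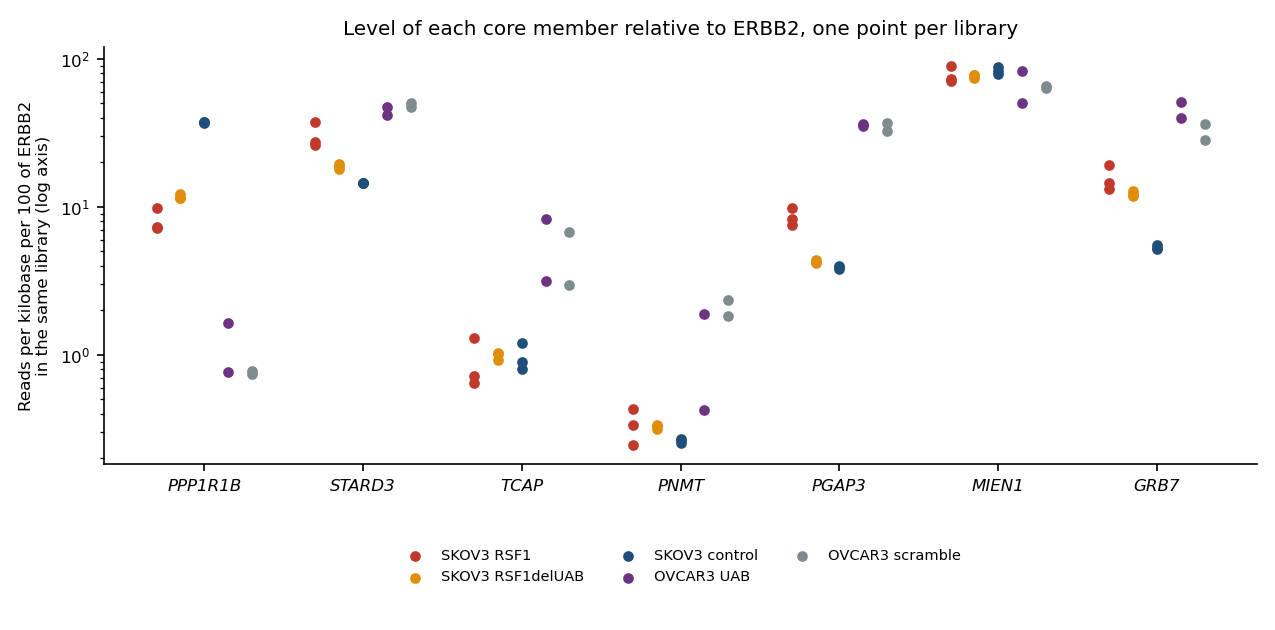
Level of 7 core members per 100 of ERBB2 in the same library, per kilobase of exon (log axis), 1 point per library in all 5 groups. PPP1R1B points of RSF1 and RSF1delUAB lie far below control, GRB7 and STARD3 points lie above it, and for MIEN1 the RSF1 points overlap control while the RSF1delUAB points lie below it.

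Among all members, 45 could be tested in SKOV3, and 24 of them were lower, 7 higher and 14 past no threshold with RSF1, or 25 lower and 7 higher without RSF1 replicate 1. Over all 16735 genes tested, 32.9% were lower and 34.3% higher. ENSG00000277182, IKZF3, RARA-AS1, IGFBP4 and TNS4 had too few counts in SKOV3 to be tested. The median log2 fold change was -1.58 in the core, -0.04 over 20 centromeric members, -0.27 over 17 telomeric members, 0.02 over all genes and 0.08 over the 700 other genes of 17q. On 17p the median was 0.44 over 260 genes. In the neighbouring windows it was -0.03 (18 genes, centromeric) and -0.07 (45 genes, telomeric).

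On the centromeric side the fall was greatest, after ENSG00000214546 next to the core, for CDK12, the kinase that phosphorylates elongating RNA polymerase II. It averaged 116 ± 22.4 CPM in RSF1 libraries and 213 ± 6.23 CPM in control libraries (SD, n = 3 each; log2 fold change -0.88, edgeR adjusted p = 1.12e-07). PIP4K2B, a phosphoinositide kinase, PSMB3, a proteasome core subunit, LASP1, an actin-binding protein, and RPL23 also fell, by 0.22 to 0.48 on the log2 scale. With these, 6 of the 20 members tested on this side were lower, a share just under the 32.9% of all genes. MED1, a Mediator subunit, averaged 168 ± 42.5 against 179 ± 5.74 CPM and did not pass (edgeR adjusted p = 0.517). RSF1 replicate 1 was low for MED1, at 119 CPM, while the other 2 RSF1 libraries were at 193 CPM each.

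The other 4 calls among the 20 members tested on this side were rises (20.0%, against 34.3% of all genes). PCGF2, a RING-finger subunit of Polycomb complex PRC1, was at 34.2, 32.3 and 38.2 CPM in RSF1 libraries, against 19.8, 20.4 and 20.2 CPM in control libraries (log2 fold change 0.79 ± 0.088, edgeR adjusted p = 1.13e-07). CACNB1, a calcium channel subunit, was at 17.9, 17.8 and 16.8 CPM against 13.4, 12.9 and 11.7 CPM (log2 fold change 0.46 ± 0.12, edgeR adjusted p = 0.00144). Neither gene's groups overlapped. LASP1NB was at 1.30, 2.54 and 2.20 CPM in RSF1 libraries, against 1.46, 1.13 and 1.10 CPM in control libraries; its groups overlapped, and its call (log2 fold change 0.72 ± 0.30, edgeR adjusted p = 0.0428) ended under 7 of 11 alternatives. FBXL20, an F-box subunit of ubiquitin ligases, rose by 0.24 on the log2 scale, with overlapping groups. PCGF2 shares 1703 exon bases, 48.5% of its own, with CISD3, which makes its reads uncertain.

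On the telomeric side 10 of 17 tested members fell and 3 rose (58.8% and 17.6%, against 32.9% and 34.3% of all genes). NR1D1 was at 12.6, 13.6 and 14.3 CPM in RSF1 libraries, against 52.4, 49.4 and 50.9 CPM in control libraries. Its groups were far apart, with a log2 fold change of -1.91 ± 0.084 (edgeR, adjusted p = 9.35e-14). The other nuclear receptor genes differed from it: THRA, the thyroid hormone receptor alpha gene, which shares 473 exon bases with NR1D1 on the opposite strand, fell by 0.49 (edgeR adjusted p = 1.58e-05), and RARA, a retinoic acid receptor gene, did not pass (log2 fold change -0.02). RAPGEFL1 (-1.03), MSL1 (-0.83), a scaffold of a histone H4 acetyltransferase complex, PSMD3 (-0.68), CASC3 (-0.67), a part of the exon junction complex, and MED24 (-0.52) fell too, all as log2 fold changes. CDC6, which loads the replicative helicase, averaged 104 ± 5.11 CPM in RSF1 and 126 ± 2.39 CPM in control libraries (log2 fold change -0.27, edgeR adjusted p = 0.00115).

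The 3 telomeric rises were GJD3, SMARCE1 and TOP2A. GJD3, a connexin gene, was at 2.80, 2.16 and 1.57 CPM in RSF1 libraries, against 0.199, 0.664 and 0.646 CPM in control libraries, so it stayed rare in both (log2 fold change 2.09 ± 0.39, edgeR adjusted p = 7.87e-05). SMARCE1, a subunit of BAF remodelling complexes, was at 16.0, 16.9 and 16.2 CPM against 11.6, 12.5 and 13.8 CPM (log2 fold change 0.37 ± 0.11, edgeR adjusted p = 0.00403). No GJD3 or SMARCE1 library of one group reached the other group. TOP2A, the topoisomerase II of dividing cells, whose gene is often copied or lost with ERBB2 in tumours, averaged 828 ± 57.3 CPM in RSF1 and 749 ± 29.7 CPM in control libraries, and its groups overlapped (log2 fold change 0.15, edgeR adjusted p = 0.0417).

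**Figure D4:**
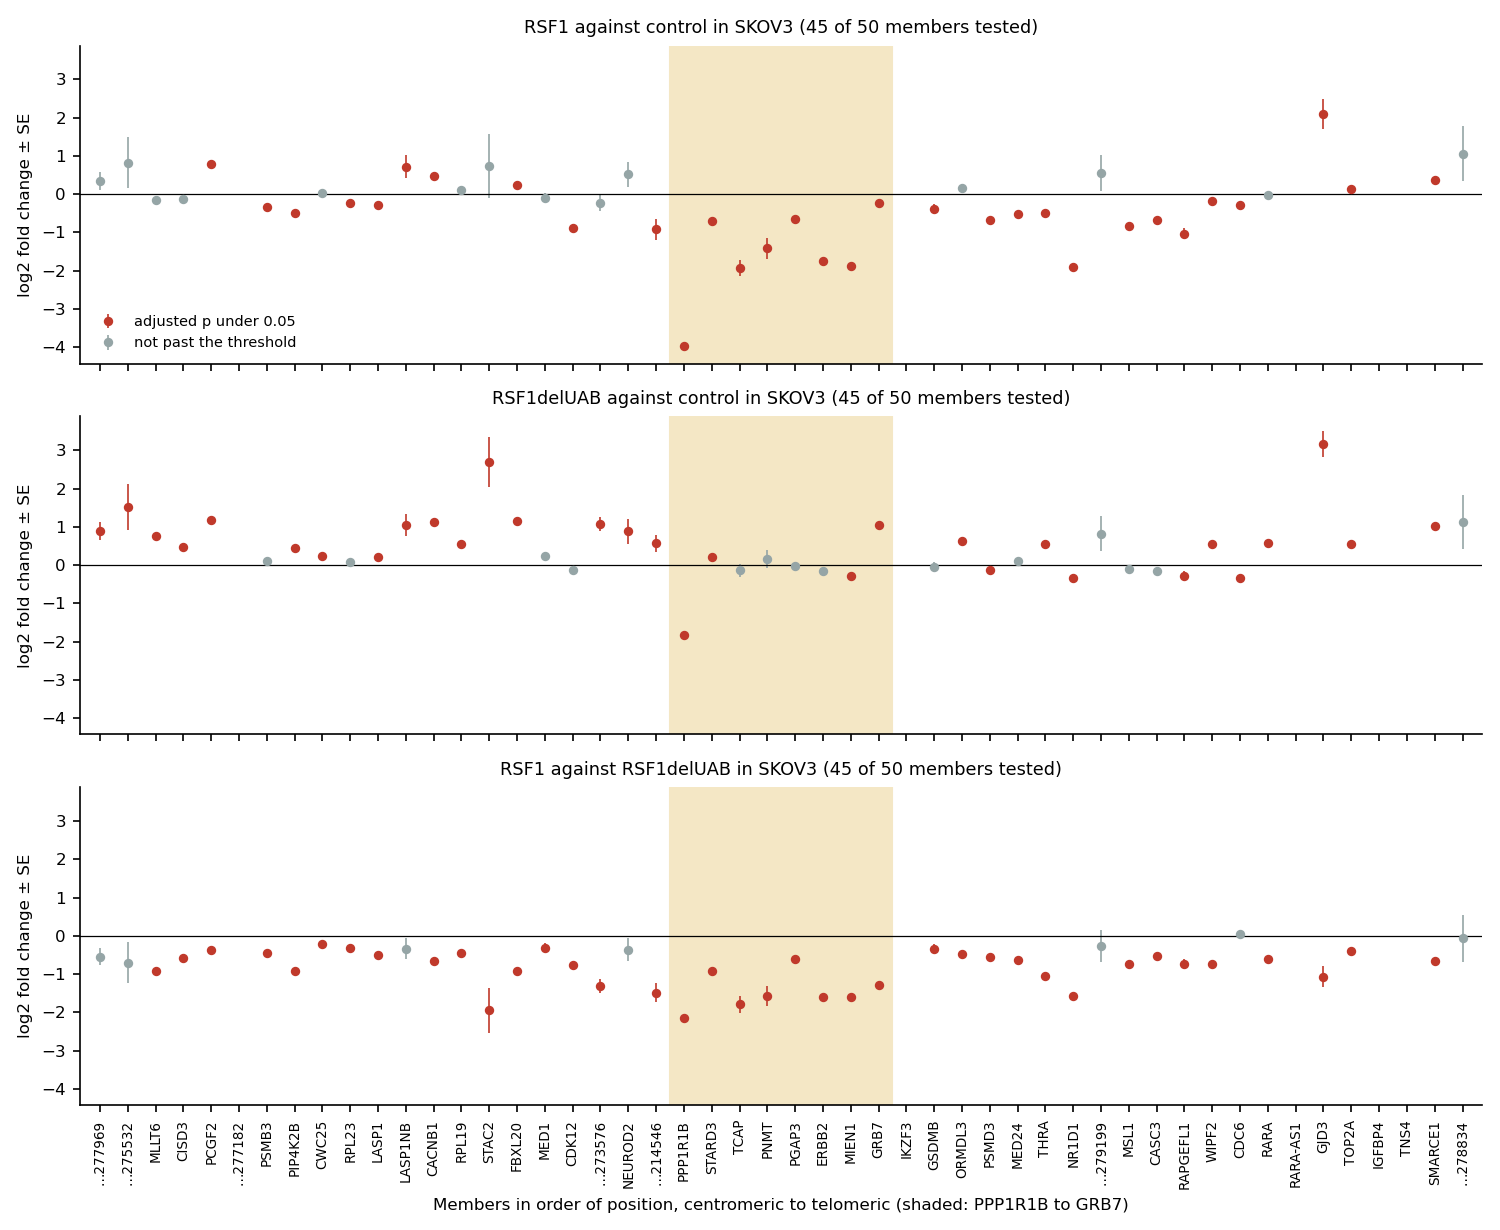
Log2 fold change ± SE of the 45 tested members in order of position for the 3 SKOV3 comparisons, red where the adjusted p is under 0.05. The shaded core lies below 0 in the top and bottom panels, while in the middle panel most flanking genes lie above 0 and PPP1R1B alone lies far below.

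The third comparison set RSF1delUAB against the same control libraries and asked for the effect of the truncated protein. ERBB2 was slightly lower and did not pass the test, and most of its neighbours were higher. PPP1R1B again fell, 3.55-fold, while GRB7 moved the other way and was 2.08-fold higher than in control libraries. On the centromeric side 16 of 20 tested members rose (80.0%, against 34.5% of all genes). CDK12, MED1, PSMB3 and RPL23 did not pass.

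ERBB2 was at 7616, 7293 and 7794 CPM in RSF1delUAB libraries, against the 8536, 8723 and 8031 CPM of the control libraries. All 3 RSF1delUAB libraries were below all 3 control libraries, but by a small margin, with a log2 fold change of -0.16 ± 0.072 (edgeR, adjusted p = 0.0619). With every counted gene kept in the fit the same change passed (-0.15, edgeR adjusted p = 0.0106), and over all alternatives its adjusted p ran from 0.0106 to 0.224. MIEN1 was at 1164, 1117 and 1139.8 CPM in RSF1delUAB libraries, below every control library (log2 fold change -0.28 ± 0.053, edgeR adjusted p = 0.000109).

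PPP1R1B was at 408, 366 and 394 CPM in RSF1delUAB libraries, below all control libraries and above all RSF1 libraries (log2 fold change against control -1.83 ± 0.065, edgeR adjusted p = 2.86e-15). GRB7 was at 325, 326 and 323 CPM in RSF1delUAB libraries, which were close to each other and above every other SKOV3 library (log2 fold change 1.06 ± 0.063, edgeR adjusted p = 1e-11). STARD3 was at 845, 778 and 792 CPM and rose by 0.22 (edgeR adjusted p = 0.0049). These 3 genes thus went in both directions within the core. PGAP3, TCAP and PNMT averaged 113 ± 1.32, 6.94 ± 0.321 and 2.79 ± 0.0791 CPM in RSF1delUAB libraries, against 115 ± 5.73, 7.65 ± 1.88 and 2.50 ± 0.139 CPM in control libraries (SD, n = 3 each). None of these 3 passed the test, with adjusted p-values of 0.647, 0.505 and 0.559 in edgeR, and the values of PGAP3 and TCAP overlapped between groups. Per 100 units of ERBB2 per kilobase, PPP1R1B stood at 11.4 to 12.2 in RSF1delUAB libraries, GRB7 at 11.9 to 12.8, STARD3 at 17.9 to 19.6 and MIEN1 at 74.1 to 77.6. Against the control ranges above, PPP1R1B and MIEN1 were lower and GRB7 and STARD3 higher in every library.

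Of the 45 members tested, 25 were higher, 6 lower and 14 past no threshold, where 34.5% and 32.1% of all genes were higher and lower. The rest of 17q went the same way, with 325 higher and 124 lower of 700 genes and a median of 0.23 log2 units, against 0.46 over the members and 0.02 over all genes. The telomeric neighbouring window had 25 higher and 7 lower of 45 genes (median 0.44). The other arm, 17p, moved likewise, with 143 higher and 30 lower of 260 genes (median 0.40). All 6 tested genes of the adhesion, actin and membrane list rose, among them LASP1 (0.20), PIP4K2B (0.43), WIPF2 (0.55), a partner of WASP in actin assembly, and CACNB1 (1.12), as log2 fold changes.

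The largest rises were in rare transcripts. GJD3 was at 5.74, 4.16 and 3.76 CPM in RSF1delUAB libraries, against 0.199, 0.664 and 0.646 CPM in control libraries (log2 fold change 3.16 ± 0.35, edgeR adjusted p = 1.03e-07). STAC2, an adaptor protein of calcium channels, was at 1.81, 0.693 and 0.986 CPM in RSF1delUAB libraries, against 0.132, 0.398 and 0 CPM in control libraries (log2 fold change 2.69 ± 0.65, edgeR adjusted p = 0.00118). Neither gene's groups overlapped, but all values were low. STAC2 had enough counts to be tested only through its RSF1delUAB libraries, where it was high. Its call and the gap between its groups are therefore given as a description. The antisense transcript ENSG00000275532 was at 1.17, 0.462 and 0.862 CPM against 0.662, 0.0664 and 0.129 CPM, with overlapping groups, and its call (log2 fold change 1.53 ± 0.60, edgeR adjusted p = 0.031) ended when control replicate 2 or 3 or RSF1delUAB replicate 1 or 3 was left out.

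PCGF2 and FBXL20 were better expressed, and both rose. PCGF2 was at 44.6, 43.5 and 47.8 CPM in RSF1delUAB libraries, against 19.8, 20.4 and 20.2 CPM in control libraries (log2 fold change 1.17 ± 0.086, edgeR adjusted p = 2.7e-10). FBXL20 was at 66.6, 66.5 and 71.1 CPM in RSF1delUAB libraries, against 31.4, 32.0 and 28.4 CPM in control libraries (log2 fold change 1.15 ± 0.086, edgeR adjusted p = 3.42e-10). In both the groups were far apart, but the reads of PCGF2 are uncertain because of its exon overlap with CISD3. CISD3 rose as well (log2 fold change 0.46, edgeR adjusted p = 4.7e-05). MLLT6, a PHD-finger protein fused to KMT2A in some leukaemias, averaged 277 ± 2.89 CPM in RSF1delUAB and 165 ± 5.59 CPM in control libraries (log2 fold change 0.75, edgeR adjusted p = 6.99e-08), whereas RPL19 averaged 1134 ± 9.39 against 778 ± 12.9 CPM (log2 fold change 0.54).

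On the telomeric side 7 of 17 tested members rose (41.2%), near the 34.5% of all genes. Among them were RARA (0.58), THRA (0.55), TOP2A (0.55) and SMARCE1 (1.02) as log2 fold changes. ORMDL3, which restrains the first step of sphingolipid synthesis, averaged 88.2 ± 6.57 CPM in RSF1delUAB and 56.9 ± 1.96 CPM in control libraries (log2 fold change 0.63, edgeR adjusted p = 5.66e-07). Its neighbour GSDMB, a pore-forming gasdermin, averaged 24.2 ± 4.75 against 25.1 ± 1.36 CPM and did not pass. The 4 falls were small. NR1D1 was at 39.1, 40.8 and 41.3 CPM in RSF1delUAB libraries (log2 fold change against control -0.33 ± 0.075, edgeR adjusted p = 0.000617). CDC6 was at 102, 95.4 and 104 CPM in RSF1delUAB libraries, against 129, 124 and 125 CPM in control libraries (log2 fold change -0.33 ± 0.066, edgeR adjusted p = 0.000192). For both genes every RSF1delUAB library was below every control library. PSMD3 fell by 0.14, and RAPGEFL1, at 13.1, 12.4 and 12.2 CPM in RSF1delUAB and 17.1, 14.0 and 15.2 CPM in control libraries, had a log2 fold change of -0.30 ± 0.13 (edgeR, adjusted p = 0.0475) that no longer passed under 9 of 11 alternatives.

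The fourth comparison set RSF1 directly against RSF1delUAB and so tested the difference between the 2 constructs. It shares its libraries with the comparisons above and is not independent of them. The members were lower with full-length RSF1 almost throughout the window. Of 45 tested, 38 were lower and 7 past no threshold, as without RSF1 replicate 1. None was higher, with 0 also at an unadjusted p of 0.05 in edgeR and 0 in DESeq2. Over all genes 20.2% were lower and 18.5% higher.

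Each of the 8 core genes was lower. ERBB2 was 3.04-fold lower in RSF1 than in RSF1delUAB libraries (log2 fold change -1.60 ± 0.073, edgeR adjusted p = 8.78e-13), with 2139 to 2816 CPM against 7293 to 7794 CPM, and -1.50 without RSF1 replicate 1. MIEN1 was 3.01-fold lower (-1.59 ± 0.055, edgeR adjusted p = 1.33e-14), PPP1R1B 4.44-fold (-2.15 ± 0.068, edgeR adjusted p = 3.28e-15) and TCAP 3.46-fold (-1.79 ± 0.22, edgeR adjusted p = 1.4e-06), with groups that did not overlap. PNMT (-1.57), GRB7 (-1.29), STARD3 (-0.93) and PGAP3 (-0.60) completed the list as log2 fold changes, each with an edgeR adjusted p of 9.2e-05 or less. The median over the 8 core genes was -1.58, against -0.56 over 20 centromeric members, -0.60 over 17 telomeric members and 0.00 over all genes.

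Lower values were also frequent in the rest of the arm. Of 700 other genes of 17q, 253 were lower and 56 higher (median -0.20), and of 45 genes in the telomeric neighbouring window 31 were lower and 2 higher (median -0.57). On 17p 29 were lower and 40 higher of 260. Flanking members with marked differences were NR1D1 (-1.58), ENSG00000214546 (-1.49), ENSG00000273576 (-1.30), GJD3 (-1.07) and THRA (-1.04) as log2 fold changes. STAC2 was at 0.391, 0.127 and 0.377 CPM in RSF1 libraries, against 1.81, 0.693 and 0.986 CPM in RSF1delUAB libraries (log2 fold change -1.95 ± 0.59, edgeR adjusted p = 0.012). Its groups did not overlap, yet the call ended without RSF1 replicate 2 or without RSF1delUAB replicate 1. As STAC2 could be tested only through its RSF1delUAB libraries, this call too is given as a description. CDC6 averaged 104 ± 5.11 CPM in RSF1 and 100.4 ± 4.51 CPM in RSF1delUAB libraries and did not pass (edgeR adjusted p = 0.543).

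By role, all 8 genes of the transcription and RNA list were lower with RSF1 than with RSF1delUAB, from -0.22 for the splicing factor CWC25 to -0.75 for CDK12 on the log2 scale. All 4 ribosomal and proteasome genes were lower too, from -0.30 for RPL23 to -0.54 for PSMD3, as were the 3 nuclear receptor genes. Over all tested members 84.4% were lower, and over all genes 20.2%, so nothing particular to a role is read from these counts. NEUROD2, a neuronal transcription factor outside the list, did not pass (log2 fold change -0.36, edgeR adjusted p = 0.374). Some markers of other cell types also differed between the SKOV3 groups, in orders unlike that of ERBB2. Summed over 5 fibroblast markers, the level was 50.7 to 52.7 CPM in RSF1, 118 to 129 CPM in RSF1delUAB and 6.22 to 7.23 CPM in control libraries, with 4, 4 and 2 of the 5 at 1 CPM or more. PDGFRB was at 0 counts in RSF1delUAB and control libraries. The sum of 5 immune markers stayed at 0.258 to 1.84 CPM over the SKOV3 libraries, with CD3E at 0 counts. The sum of 3 endothelial markers was 0.196 to 0.318 CPM in RSF1, 0.266 to 0.308 CPM in RSF1delUAB and 1.49 to 3.72 CPM in control libraries, with CDH5 at 0 counts in control libraries and PECAM1 lower with RSF1 (log2 fold change -4.37, edgeR adjusted p = 7.55e-07) and with RSF1delUAB (-3.31, edgeR adjusted p = 3.47e-06). PECAM1 had enough counts to be tested only through its control libraries, so its calls are given as a description. The part of these markers in the results for the members was not tested.

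The fifth comparison asked what the UAB peptide changed in OVCAR3, where ERBB2 is low. Few members passed the test. TNS4, NR1D1 and CISD3 fell, and of 6 core genes tested 0 passed, also at an unadjusted p of 0.05. Of 46 members tested, 3 were lower and 0 higher, where 5.46% and 5.45% of all 18359 genes were lower and higher. The members' share of lower calls (6.52%) was thus near that of all genes. At an unadjusted p of 0.05, 6 were lower and 0 higher, and DESeq2 called 3 lower and 0 higher.

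ERBB2 was at 116 and 113 CPM with the UAB peptide, against 130.0 and 125 CPM in scramble libraries. Both UAB libraries were below both scramble libraries, with a log2 fold change of -0.15 ± 0.13 (edgeR, adjusted p = 0.506). STARD3 was at 27.6 and 30.3 against 34.8 and 35.9 CPM (log2 fold change -0.29 ± 0.14, edgeR adjusted p = 0.23). GRB7 was at 16.0 and 20.3 against 16.5 and 12.4 CPM, MIEN1 at 11.6 and 18.4 against 16.2 and 16.2 CPM and PGAP3 at 14.3 and 14.4 against 16.9 and 14.4 CPM, and these 3 overlapped between groups. PPP1R1B and PNMT had too few counts in OVCAR3 to be tested, as had NEUROD2 and ENSG00000214546.

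TNS4 was at 3.73 and 4.48 CPM with the UAB peptide, against 11.2 and 8.21 CPM in scramble libraries (log2 fold change -1.24 ± 0.24, edgeR adjusted p = 0.00342). NR1D1 was at 5.54 and 5.18 CPM with the UAB peptide, against 9.19 and 10.1 CPM in scramble libraries (log2 fold change -0.85 ± 0.21, edgeR adjusted p = 0.0169). CISD3, an iron-sulfur protein of mitochondria, was at 12.5 and 11.2 CPM with the UAB peptide, against 24.1 and 15.7 CPM in scramble libraries (log2 fold change -0.74 ± 0.20, edgeR adjusted p = 0.0295). In all 3 the groups were apart. The call of CISD3 rested on scramble replicate 1, without which the log2 fold change was -0.40 (edgeR adjusted p = 0.382), and 54.6% of its exon bases lie in PCGF2 on the other strand. PCGF2 itself averaged 18.0 ± 1.41 CPM with the UAB peptide and 19.8 ± 0.00204 CPM in scramble libraries (SD, n = 2 each) and did not pass.

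**Figure D5:**
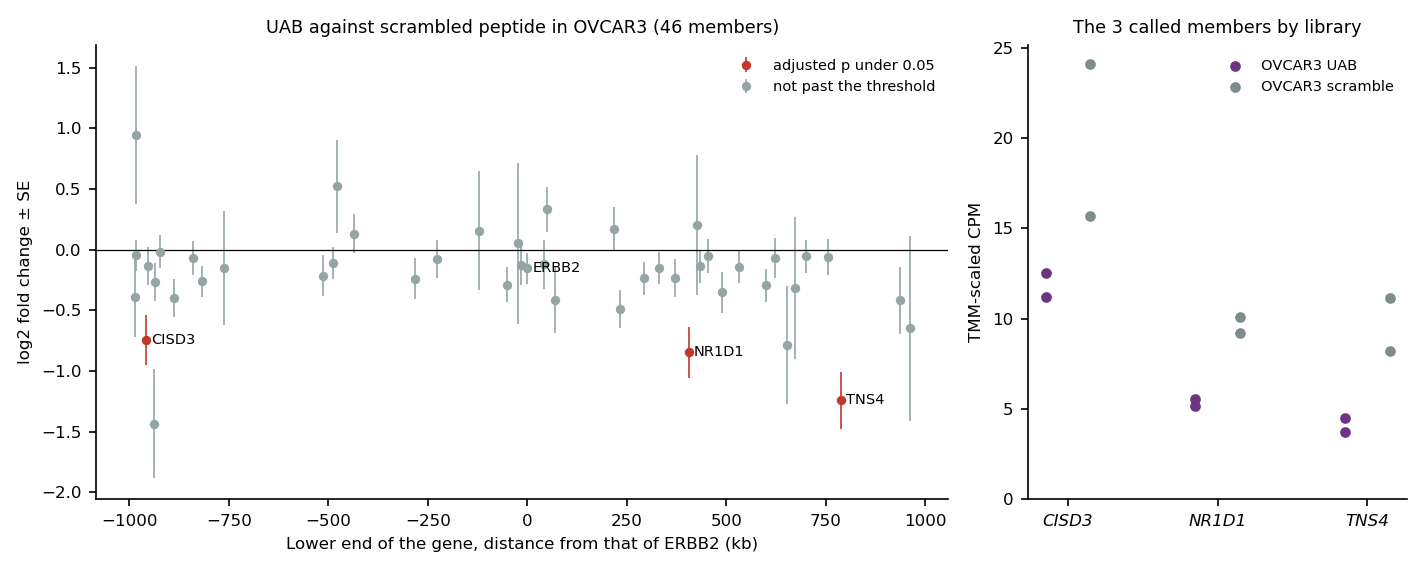
Left, log2 fold change ± SE of the 46 tested members for UAB against scrambled peptide in OVCAR3, by distance of the gene's lower coordinate from that of ERBB2 in kb, red where the adjusted p is under 0.05. Right, TMM-scaled CPM of CISD3, NR1D1 and TNS4, 1 point per library, where the UAB libraries (purple) lie below the scramble libraries (grey).

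Genes of ERBB signalling outside the window, 32 in the list, were read in the same fits. With RSF1 9 were higher and 16 lower of 31 tested (34.3% and 32.9% of all genes). With RSF1delUAB 6 were higher and 17 lower of 31 (34.5% and 32.1% of all genes). In RSF1 against control genes with some of the smallest adjusted p-values were EREG, a ligand of EGFR and ERBB4 (log2 fold change 3.76), PTPN11, a phosphatase of receptor signalling (-1.11), and PIK3R3, a regulatory subunit of phosphoinositide 3-kinase (-2.01). In RSF1delUAB against control they were ERRFI1, a feedback inhibitor of the receptors (-1.85), PIK3R3 (-2.01) and PTPN11 (-0.85). Both comparisons share the control libraries. All these genes passed in edgeR, with an adjusted p of 1.43e-09 or less.

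Between the constructs, 6 genes of the list were higher and 5 lower with RSF1 (19.4% and 16.1%), close to the 18.5% and 20.2% of all genes. EREG averaged 20.0 ± 0.712 CPM in RSF1 libraries, 0.167 ± 0.102 CPM in RSF1delUAB libraries and 1.46 ± 0.472 CPM in control libraries (SD, n = 3 each). It was thus higher with RSF1 and lower with RSF1delUAB, both past the threshold (edgeR adjusted p = 6.83e-13 and 2.2e-06). EGFR, the partner of ERBB2 that SKOV3 expressed, averaged 209 ± 53.5 CPM in RSF1, 169.7 ± 5.41 CPM in RSF1delUAB and 227 ± 6.90 CPM in control libraries. EGFR did not pass in RSF1 against control (edgeR adjusted p = 0.384) and was lower with RSF1delUAB (log2 fold change -0.42, edgeR adjusted p = 0.00418). ERBB3 and ERBB4 were at or under 1.79 CPM in every SKOV3 library. With the UAB peptide in OVCAR3, 3 genes of the list were higher and 2 lower of 31, where 5.45% and 5.46% of all genes were higher and lower. Among them were EGFR, at 149.6 ± 28.7 CPM with the peptide and 77.8 ± 28.3 CPM in scramble libraries (SD, n = 2 each; log2 fold change 0.94, edgeR adjusted p = 0.00841), and TGFA, its ligand, which fell by 0.73 (edgeR adjusted p = 0.00593).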

How the data were processed

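Poly-A RNA of 9 SKOV3 and 4 OVCAR3 libraries was analysed. The values are whole-number read counts per gene, deposited by the authors without normalization in a table for each line. The submitters' processing notes name FastQC, STAR 2.7.9a and Subread, and the builds GRCh38, hg38 and GRCm38. Annotation release and strand use in counting: not given in the sources used here. A record broken over 3 lines (ANK2) was rejoined. The column of OVCAR3 scramble replicate 2 carries an unexplained letter.

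The groups of a line shared 1 fit in edgeR 4.0.16 (R 4.3.3), with TMM, filterByExpr at a minimum count of 10 and the quasi-likelihood test. The SKOV3 fit had 16735 genes and 6 residual degrees of freedom, the OVCAR3 fit 18359 genes and 2, and a joint fit for the comparison of lines 19946 genes and 8. Adjusted p-values are by Benjamini-Hochberg over all genes of a comparison (threshold 0.05), and the SE is the size of the log2 fold change divided by the square root of F. CPM come from the line's fit, RPKM from the joint fit and the deposited exon lengths. The fits were tested on simulated data.

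Alternatives were RLE or no scaling, no count filter, DESeq2 1.42.0, the replicate number as a block, each replicate left out, a member minimum of 1000 counts and, for the lines, a fit of both controls alone. The text names the core genes, the 5 largest rises and falls among called members of each comparison, genes of role lists and up to 4 ERBB signalling genes with the smallest adjusted p; some genes that this rule takes are left out of the text. MLLT6, NEUROD2, PECAM1, ENSG00000214546, ENSG00000273576, RAPGEFL1 with RSF1, and EGFR, ERBB3 and ERBB4 in SKOV3 were named after their values were seen. The members and lists were chosen with earlier results of these data known. Same-numbered SKOV3 libraries did not deviate together (correlations -0.0417 to 0.0712), so replicate numbers were not taken as pairs.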

Additional observations from a re-analysis of the deposited data

How the results depend on the processing

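Over all named genes, 673 log2 fold changes were recomputed under other settings. Of these, 642 kept their direction and side of the threshold, 23 lost the threshold, 2 passed it newly and 6 changed sign. The 6 sign changes were in genes that had not passed in the comparison concerned. PGAP3 in RSF1delUAB against control (-0.03 as reported) was 0.014 with library totals and ran from -0.065 to 0.0036 with 1 replicate left out, highest without control replicate 2. TCAP there ran from -0.25 to 0.079 and was highest without control replicate 2. In OVCAR3 TCAP ran from -0.74 without UAB replicate 2 to 0.79, with -0.43 without scramble replicate 2, and MIEN1 from -0.49 to 0.19, highest without UAB replicate 1. Leaving out 1 replicate gave 5 to 7 members higher and 22 to 25 lower for RSF1, 22 to 25 and 4 to 5 for RSF1delUAB, 0 and 34 to 38 for RSF1 against RSF1delUAB, 0 and 2 to 4 for the UAB peptide, and 33 to 34 and 6 to 8 between lines. With no count filter 5 members were lower with the UAB peptide in place of 3, and with a member minimum of 1000 counts 2 were lower in SKOV3 than in OVCAR3 in place of 7, since fewer members were counted. With the replicate number as a block, 5 members were higher and 24 lower for RSF1, 25 and 4 for RSF1delUAB, 0 and 38 between the constructs, 0 and 4 for the UAB peptide, and 33 and 6 between lines; the labels do not say that a number marks a shared batch. In OVCAR3 same-numbered libraries correlated at -0.149, and a block with crossed numbers, chosen after seeing the data, gave 12 members lower. With 2 libraries a group and 2 residual degrees of freedom, small changes in OVCAR3 were not detectable.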
